A study of Homo sapiens with 6 samples.

Results

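CDC20 and 9 genes that work with it at the end of mitosis were followed in HCT116 cells that overexpressed RBM47. The 10 genes were taken by symbol from the 28491 genes of the deposited count table. CDC20 was selected on its lower level in RBM47-OE in these same libraries, so its own values are given as a description without a test. The other members were chosen by function: FZR1, the other activator of the same ubiquitin ligase, the checkpoint genes BUB1, BUB1B, BUB3, MAD2L1 and TTK, the ligase substrates PTTG1 and CCNB1, and the ubiquitin-conjugating enzyme UBE2C. That choice was made with earlier results of these data known. The question was whether the lower level of CDC20 was shared by the genes around it. All 10 passed the filter on low counts that left 16260 genes for testing.

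The anaphase-promoting complex or cyclosome (APC/C) is the ubiquitin ligase that ends mitosis. CDC20 switches it on at metaphase, and FZR1, also called CDH1, takes over at mitotic exit and in G1. Until every chromosome is attached to the spindle, TTK, BUB1, BUB3, BUB1B and MAD2L1 act at the kinetochores to build an inhibitor that holds CDC20. Once CDC20 is free, the ligase marks securin, the product of PTTG1, and cyclin B1, the product of CCNB1, for destruction, and the sister chromatids part.

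HCT116 is a human colorectal carcinoma line. Cells in the RBM47-OE group received a plasmid carrying RBM47 and cells in the NC group a control plasmid, by lipofection, and poly(A) RNA was sequenced 48 h later in 3 libraries of each group. The labels name the plasmid pcDNA3.1-3xFlag-RBM47, whereas the methods name pIRES-hrGFP-1a. Transfection reaches only some of the cells, the RNA was pooled over all of them, and neither source says whether the 3 libraries came from separate transfections, so that p-values measure the spread between these libraries only.

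Between 26792409 and 35477983 reads fell on genes in each library. RBM47 itself had an FPKM of 1.91 to 2.33 in NC and 127.0 to 131.3 in RBM47-OE, where FPKM is the fragments on a gene scaled to its length and to the fragments mapped in the library. The 6 epithelial markers summed to 1939 to 2112 FPKM in NC and 1799 to 2039 in RBM47-OE. Leukocyte and endothelial markers stayed under 1 FPKM in all libraries for each of the 3 genes listed of either type. Of 3 fibroblast and muscle markers listed 1 did, and the 3 summed to 3.10 to 3.75 FPKM in NC and 3.45 to 4.14 in RBM47-OE. RBM47-OE replicate 1 stood apart from the other two of its group, with a chi-square per degree of freedom of 17.9 and 19.5 against them, compared with 8.95 between replicates 2 and 3 and 3.38 to 4.79 between NC libraries.

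CDC20 (ENSG00000117399; chr1:43358981-43363203, plus strand, coordinates here and after from GENCODE 44 on GRCh38) was the most abundant of the 10 transcripts in both groups. Library values are listed in the order of replicates 1, 2 and 3. Its FPKM was 140.1, 137.9 and 128.0 across the NC libraries and 89.9, 77.2 and 79.0 across the RBM47-OE libraries. The lowest NC library lay well above the highest RBM47-OE library, and the mean went from 135.4 ± 6.42 (SD, n = 3) to 82.0 ± 6.89 (SD, n = 3), which is 60.6% of NC. In the counts the log2 fold change was -0.79 with a standard error of 0.078 and a 95% interval of -0.95 to -0.63, and 1.09% of all tested genes had a lower value. By FPKM, 98.5% of the protein-coding genes listed had a lower level than CDC20 in NC, and 97.5% did in RBM47-OE. In bulk RNA, fewer cells in mitosis and less CDC20 RNA in each cell cannot be told apart.

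Of the 9 other members, 3 were higher and 4 lower in RBM47-OE by edgeR's quasi-likelihood test, called at a Benjamini-Hochberg adjusted p below 0.05 over all genes. BUB1, BUB1B and TTK rose, and FZR1, CCNB1, PTTG1 and UBE2C fell. BUB3 and MAD2L1 did not pass. Once each library's trend with the GC content of the exons was removed, 0 of the 9 were higher and 4 lower. The shares over all genes were then 5.99% and 8.47%. The 4 were CCNB1, PTTG1, FZR1 and BUB3, UBE2C having dropped out, and the rises of BUB1, BUB1B and TTK no longer passed. Without removal of the GC trend, 19.1% of all tested genes were called higher and 16.9% lower. The 3 and 4 of 9 are larger shares than these backgrounds, and the set as a whole was not tested. The members were chosen with earlier results of these data known, so the larger shares are a description only. With the stricter limits of the study (raw p below 0.01, more than 1.5-fold), 0 of the 9 were called in edgeR, in DESeq2 or in limma on log2(FPKM + 1), although 4 were higher and 4 lower at an unadjusted p-value under 0.05 in edgeR. These thresholds called 1.51% of all genes higher and 0.873% lower, with CDC20, which was selected on its lower level, among the lower. The median log2 fold change of the 9 was 0.07, against 3.96e-05 over all genes tested. With the GC trend removed it was -0.16, against -0.000535 over all genes.

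**Figure D1:**
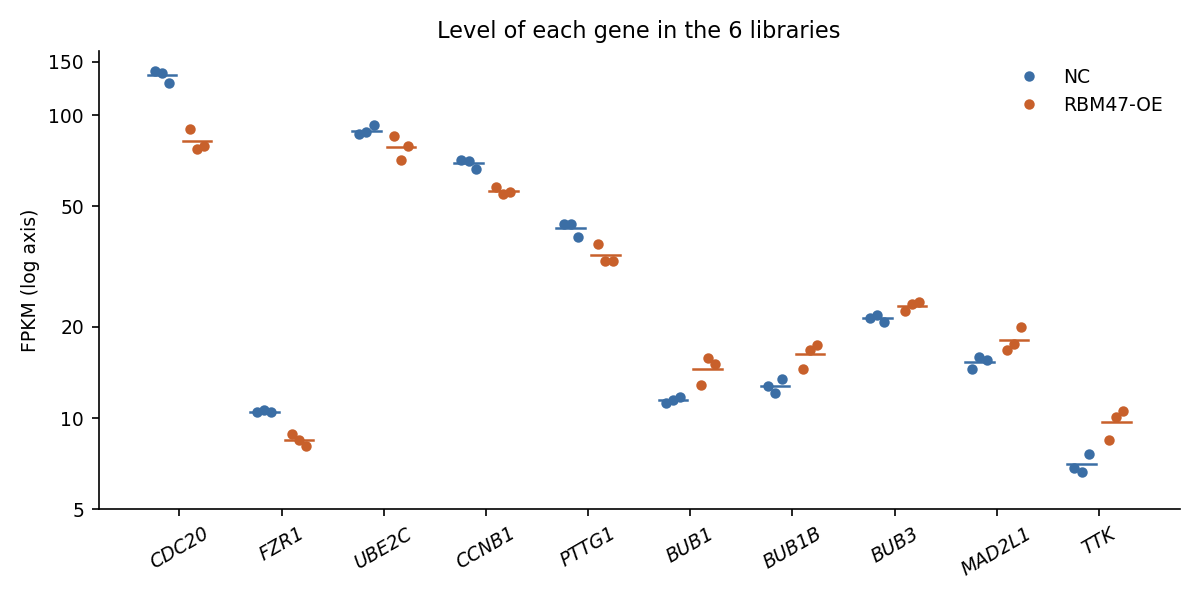
FPKM of the 10 genes in each library on a log axis, with NC in blue and RBM47-OE in orange, and with a horizontal bar at the mean of each group of 3 libraries. CDC20 sits at 128.0 to 140.1 in NC and at 77.2 to 89.9 in RBM47-OE, and the 5 checkpoint genes at the right sit higher in RBM47-OE than in NC. Once the GC trend is removed, BUB3 and MAD2L1 turn around, and BUB1, BUB1B and TTK no longer pass the test.

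FZR1 (chr19:3506311-3538334, plus strand), the activator that replaces CDC20 after anaphase and also targets CDC20 for destruction, was lower as well, by a smaller amount. Its FPKM was 10.4, 10.6 and 10.5 across the NC libraries and 8.89, 8.45 and 8.07 across the RBM47-OE libraries. No RBM47-OE library reached an NC library, and the NC values were nearly equal, at 10.5 ± 0.0987 (SD, n = 3) against 8.47 ± 0.410 (SD, n = 3). The log2 fold change was -0.38 (standard error 0.073, 95% interval -0.53 to -0.23, edgeR adjusted p = 0.000341). FZR1 RNA was far scarcer than CDC20 RNA per length: the ratio of CDC20 to FZR1 in FPKM was 12.2 to 13.4 in NC and 9.13 to 10.1 in RBM47-OE.

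UBE2C (chr20:45812576-45816957, plus strand), the conjugating enzyme that places the first ubiquitin on APC/C substrates, showed the least steady of the lower values. Its FPKM was 86.5, 87.8 and 92.7 across the NC libraries and 85.6, 71.3 and 78.9 across the RBM47-OE libraries. RBM47-OE replicate 1 lay just under the lowest NC library, and the group means were 89.0 ± 3.28 (SD, n = 3) and 78.6 ± 7.16 (SD, n = 3). The log2 fold change was -0.25 (standard error 0.078, 95% interval -0.41 to -0.09, edgeR adjusted p = 0.0147). Without NC replicate 3, or without RBM47-OE replicate 2, it did not pass an adjusted p-value of 0.05.

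Both substrates whose destruction CDC20 triggers were lower at the RNA level. CCNB1 (chr5:69167135-69178245, plus strand), which encodes cyclin B1, the activator of the mitotic kinase CDK1, had an FPKM of 71.2, 70.6 and 66.5 across the NC libraries and of 58.1, 55.1 and 55.6 across the RBM47-OE libraries. PTTG1 (chr5:160421855-160428739, plus strand), which encodes securin, the inhibitor of separase, had 43.6, 43.8 and 39.6 FPKM across the NC libraries and 37.5, 33.0 and 33.1 across the RBM47-OE libraries. For both genes the groups did not overlap, and the levels in RBM47-OE were 81.0% and 81.5% of those in NC. The log2 fold change was -0.37 for CCNB1 (standard error 0.070, edgeR adjusted p = 0.000301) and -0.36 for PTTG1 (standard error 0.077, edgeR adjusted p = 0.000837).

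CCNB1 and PTTG1 kept their ratio to each other. PTTG1 to CCNB1 in FPKM was 0.610 ± 0.0120 (SD, n = 3) for NC against 0.613 ± 0.0277 (SD, n = 3) for RBM47-OE, a difference smaller than the spread between libraries. CDC20 was lower relative to both in FPKM, which carries no GC correction. The ratio of CDC20 to CCNB1 was 1.97, 1.95 and 1.93 across the NC libraries and 1.55, 1.40 and 1.42 across the RBM47-OE libraries, and that of CDC20 to PTTG1 was 3.15 to 3.23 in NC and 2.34 to 2.40 in RBM47-OE. As these ratios contain CDC20, they were not tested. The GC content of the exons was 57.6% in CDC20, 43.5% in CCNB1 and 44.5% in PTTG1. Once the GC trend was removed, the log2 fold changes were -0.61, -0.54 and -0.49 in that order.

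The 5 checkpoint genes did not share the lower level of CDC20 in the libraries as scaled by TMM or FPKM, although BUB3 and MAD2L1 turned negative once the GC trend was removed. The groups did not overlap in any of them, RBM47-OE being higher, and 3 of the 5 rose in the test. Over all tested genes, 23.2% did not overlap as higher and 19.1% were called higher. The 3 that rose (TTK, BUB1 and BUB1B) did not pass once the GC trend was removed. TTK was then at 0.13, BUB1B at 0.10 and BUB1 near 0. TTK (chr6:80003887-80042527, plus strand), the kinase that starts checkpoint signalling at the kinetochore, had an FPKM of 6.85, 6.65 and 7.61 across the NC libraries and of 8.45, 10.1 and 10.6 across the RBM47-OE libraries. It had the largest rise of the 10 genes, with a log2 fold change of 0.39 (standard error 0.086, 95% interval 0.21 to 0.57, edgeR adjusted p = 0.00114).

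BUB1 (chr2:110637528-110678063, minus strand), a kinase that recruits the other checkpoint proteins to the kinetochore, had an FPKM of 11.2, 11.5 and 11.7 across the NC libraries and 12.9, 15.8 and 15.05 across the RBM47-OE libraries. BUB1B (chr15:40161023-40221123, plus strand), which encodes BUBR1, a part of the inhibitor that binds CDC20, had 12.8, 12.1 and 13.4 in NC and 14.6, 16.8 and 17.5 in RBM47-OE. In both genes RBM47-OE replicate 1 lay nearest to the NC libraries. The log2 fold change was 0.27 for BUB1 (standard error 0.074, edgeR adjusted p = 0.00561) and 0.28 for BUB1B (standard error 0.077, edgeR adjusted p = 0.00639), and BUB1B did not pass without NC replicate 2.

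BUB3 (chr10:123154402-123170467, plus strand), the adaptor that carries BUB1 and BUBR1 to the kinetochore, had an FPKM of 21.4, 21.9 and 20.7 across the NC libraries and 22.5, 23.8 and 24.1 across the RBM47-OE libraries. MAD2L1 (chr4:120055623-120066858, minus strand), which encodes MAD2, the protein that changes shape to clasp CDC20, had 14.6, 15.96 and 15.5 in NC and 16.8, 17.5 and 19.9 in RBM47-OE. Neither difference passed the adjusted test. The log2 fold change was 0.07 for BUB3 (95% interval -0.07 to 0.21, edgeR adjusted p = 0.477) and 0.16 for MAD2L1 (95% interval 0.01 to 0.32, edgeR adjusted p = 0.0937). Without RBM47-OE replicate 1, MAD2L1 passed.

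On FPKM and on log2 CPM (TMM-normalized counts scaled to library size, on a log2 scale) the 2 groups did not overlap for any of the 10 genes, 5 being higher and 5 lower. Over all tested genes the groups did not overlap in 23.2% as higher and in 23.4% as lower in RBM47-OE. For each of the 9 members other than CDC20 p = 0.10 in an exact two-sided permutation test on FPKM, which no design of 3 libraries against 3 can go below. The size of the difference from the NC mean varied between the RBM47-OE libraries. In log2 CPM it was -0.63, -0.92 and -0.84 for CDC20 in replicates 1, 2 and 3, -0.30, -0.44 and -0.39 for CCNB1, and 0.23, 0.42 and 0.52 for TTK. RBM47-OE replicate 1 lay nearest to the NC mean in 9 of the 10 genes, MAD2L1 being the exception by a narrow margin.

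**Figure D2:**
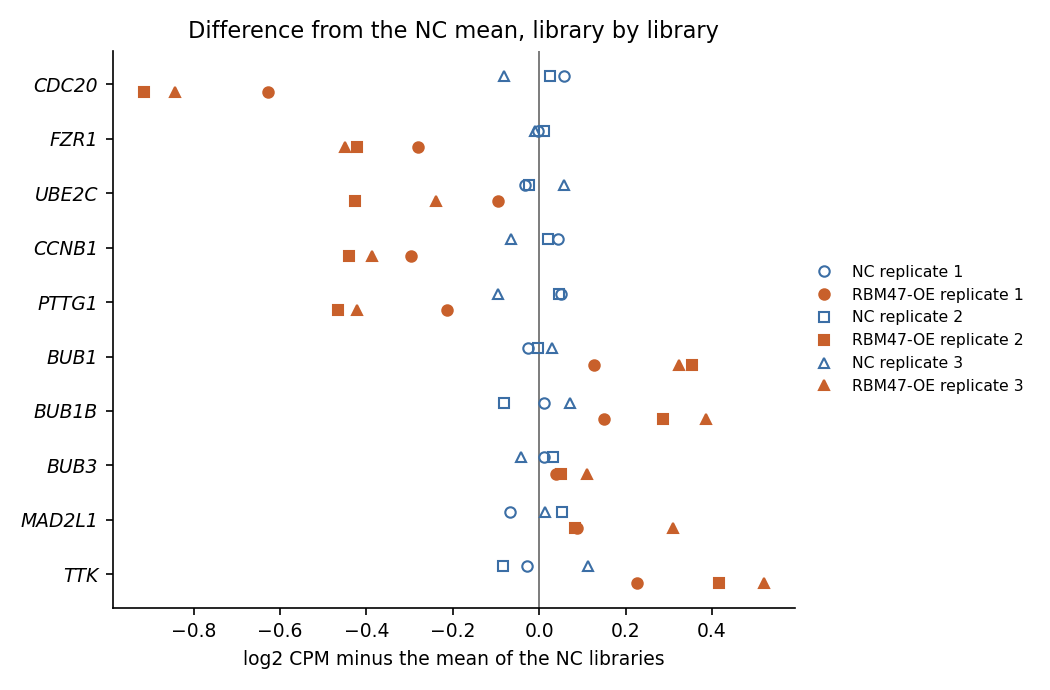
Log2 CPM of each gene minus the mean of its 3 NC libraries, with 1 symbol per library, open blue for NC and filled orange for RBM47-OE, and circles, squares and triangles for replicates 1, 2 and 3. CDC20 lies at -0.63, -0.92 and -0.84, FZR1, UBE2C, CCNB1 and PTTG1 lie between -0.47 and -0.09, and the 5 checkpoint genes lie between 0.04 and 0.52. Once the GC trend is removed, BUB3 and MAD2L1 change sign, and BUB1, BUB1B and TTK no longer pass the test.

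In FPKM, which carries no GC correction, the ratio of CDC20 RNA to the RNA of its checkpoint inhibitors was lower in RBM47-OE. CDC20 exceeded MAD2L1 in FPKM by a ratio of 9.61, 8.64 and 8.24 across the NC libraries and of 5.37, 4.41 and 3.96 across the RBM47-OE libraries. The ratio of CDC20 to BUB1B went from 10.6 ± 0.981 (SD, n = 3) to 5.09 ± 0.937 (SD, n = 3), and that of CDC20 to TTK from 19.3 ± 2.18 (SD, n = 3) to 8.59 ± 1.78 (SD, n = 3). As CDC20 was selected on its lower level in these libraries, lower ratios of this kind follow in part from that selection, and they were not tested. The exons of CDC20 have 57.6% GC, against 38.0% in MAD2L1, 43.3% in BUB1B and 41.0% in TTK. Once the GC trend was removed, the log2 fold changes were -0.61, -0.17, 0.10 and 0.13 in that order. How much of the lower ratios went with GC content was not tested. RNA ratios say nothing of the protein amounts, which were not analysed here.

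In NC the order of the levels in FPKM was CDC20, UBE2C, CCNB1, PTTG1, BUB3, MAD2L1, BUB1B, BUB1, FZR1 and TTK, and no neighbours in that order overlapped. In RBM47-OE the order was the same except that TTK, at 9.70 ± 1.11 (SD, n = 3), stood above FZR1, at 8.47 ± 0.410 (SD, n = 3), with overlapping libraries. CDC20 and UBE2C, which were clearly apart in NC, also overlapped in RBM47-OE, at 77.2 to 89.9 and 71.3 to 85.6. MAD2L1 overlapped with BUB1B, and BUB1B with BUB1.

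The libraries also differed in how gene levels followed the base composition of the exons, and the members are not alike in it. The tested genes were divided into 10 equal groups by exonic GC content. In the GC-poorest group (median 37.4% GC) the median log2 fold change was 0.38, and in the GC-richest (64.0%) it was -0.23. The checkpoint genes were at the GC-poor end: exonic GC content was 38.0% in MAD2L1, 40.6% in BUB1, 40.9% in BUB3, 41.0% in TTK and 43.3% in BUB1B. CDC20 had 57.6%, UBE2C 53.5% and FZR1 63.5%, while CCNB1, with 43.5%, and PTTG1, with 44.5%, lay just above the 5 checkpoint genes. CCNB1 was in the same GC group as BUB1B, where the median log2 fold change was 0.22, and PTTG1 in the next, where it was 0.12, and both genes were lower in RBM47-OE.

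**Figure D3:**
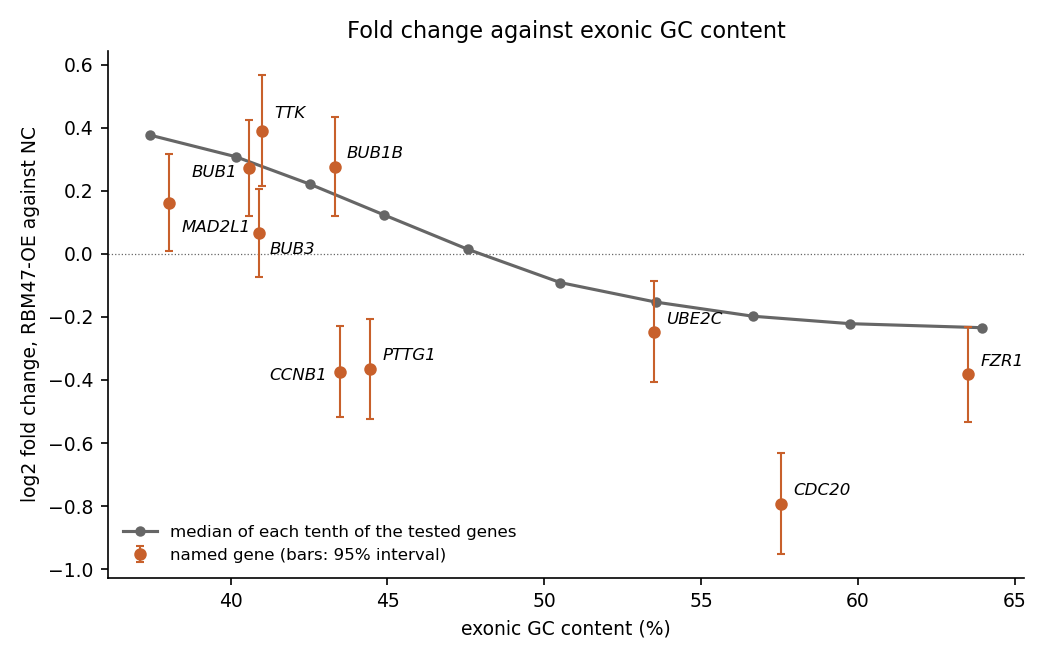
Log2 fold change of RBM47-OE against NC (vertical axis) against exonic GC content in percent (horizontal axis), with the 10 genes in orange and their 95% intervals, and in grey the median of each of the 10 groups of tested genes by GC content. BUB1, BUB1B and TTK lie within their intervals of the grey line, CCNB1, PTTG1 and CDC20 lie below it, and the point of CDC20 minus the median of its group is -0.59.

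Against genes of like GC content, the checkpoint genes no longer stood out as higher. The log2 fold change minus the median of the gene's GC group was -0.04 for BUB1, 0.06 for BUB1B and 0.08 for TTK. It was -0.59 for CDC20, -0.59 for CCNB1 and -0.49 for PTTG1. FZR1 was at -0.15 and UBE2C at -0.09, while BUB3 was at -0.24 and MAD2L1 at -0.21.

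A second edgeR fit removed each library's smooth trend with exonic GC content (the GC offset) for the 16233 tested genes with exons in GENCODE 44. Such an offset removes any change that tracks GC content, technical or not, and whether the trend was technical was not tested. CDC20 remained lower in it, at -0.61 (standard error 0.062, 95% interval -0.74 to -0.49). CCNB1, at -0.54 (standard error 0.063, edgeR adjusted p = 2.52e-05), and PTTG1, at -0.49 (standard error 0.072, edgeR adjusted p = 0.000152), were lower in it too, against -0.37 and -0.36 without it. The intervals of CDC20 and CCNB1 overlapped in this fit, at -0.74 to -0.49 and -0.67 to -0.41. The difference between these genes was not tested.

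The rise of the checkpoint genes did not hold with the GC offset. TTK had a log2 fold change of 0.13 (edgeR adjusted p = 0.208), BUB1B of 0.10 (edgeR adjusted p = 0.273), and the value of BUB1 was near 0, with a 95% interval of -0.11 to 0.11 (edgeR adjusted p = 0.999). BUB3 turned to -0.19 (edgeR adjusted p = 0.0271) and MAD2L1 to -0.17 (edgeR adjusted p = 0.0714). FZR1 fell by 0.16 in log2 terms (edgeR adjusted p = 0.0461), and UBE2C had a value of -0.11 (edgeR adjusted p = 0.274).

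With the GC offset, 0 of the 9 members other than CDC20 were thus called higher and 4 lower, namely CCNB1, PTTG1, FZR1 and BUB3, in edgeR's quasi-likelihood test. At an unadjusted p-value under 0.05, 0 were higher and 5 lower. In that fit 5.99% of all genes were called higher and 8.47% lower. When each library was left out in turn, an alternative added after the data were seen, CCNB1 and PTTG1 passed in all 6 fits, FZR1 in none of them, and BUB3 only without RBM47-OE replicate 1, where MAD2L1 passed too (-0.21, edgeR adjusted p = 0.0353). CDC20 ranged from -0.66 to -0.56 in these fits.

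**Figure D4:**
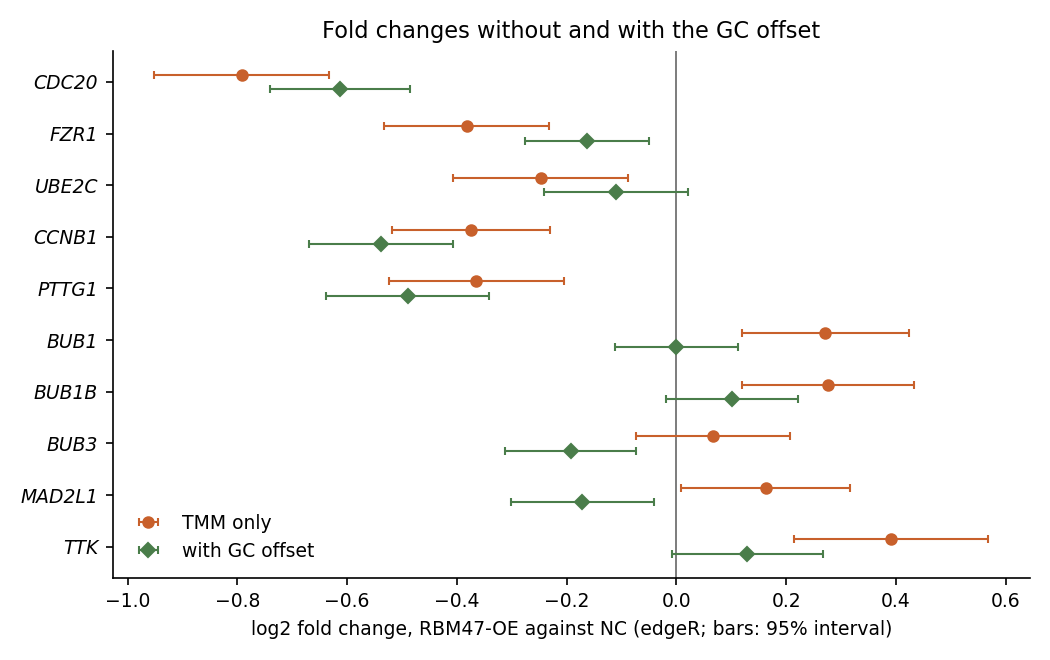
Log2 fold change with its 95% interval for each gene, from the TMM-normalized fit (orange circles) and from the fit with the GC offset (green diamonds). CDC20, CCNB1 and PTTG1 are negative in both, BUB1, BUB1B and TTK are at 0.27 to 0.39 without the offset and at 0.13 or less with it, and BUB3 and MAD2L1 change sign.

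The promoters of the members were searched for short sequence elements known from genes that peak in G2 and mitosis. Whether such elements go with lower or higher levels in RBM47-OE was not tested. RefSeq promoter windows of GRCh38.p14, from 250 bases before to 50 bases after the transcription start, were matched for 7 of the 10 genes, which leaves BUB3, TTK and UBE2C. They were searched on both strands for the cell cycle homology region (CHR, the letters TTTGAA or TTCGAA), for the CCAAT box (the letters CCAAT) and, after the CCNB1 and PTTG1 windows had been seen, for the letters TTTAAA. Of all 35097 promoters in the table, 16.4% held TTTGAA or TTCGAA, 34.6% held CCAAT and 12.2% held TTTAAA. Each stretch below reads 5′ to 3′ along the gene, with the matched letters in capitals.
CDC20 (chr1:43358905-43358933, plus strand): gacggttggatTTTGAAggagccaatagg
BUB1B (chr15:40161035-40161063, plus strand): ggaccgttaaaTTTGAAacttggcggcta
MAD2L1 (chr4:120066807-120066835, minus strand): gcgtcgttactTTTGAAacgcttggcggg
BUB1 (chr2:110678045-110678073, minus strand): tgcgcggggtaTTCGAAtcggcggcggct
FZR1 (chr19:3506074-3506102, plus strand): tcctgtattgaTTTGAAtcgcgggagacg
CCNB1 (chr5:69167109-69167137, plus strand): gcagtgcggggTTTAAAtctgaggctagg
PTTG1 (chr5:160421815-160421843, plus strand): gcgagttgtggTTTAAAccaggagtgcgc

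Positions count from 0 at the first transcribed base. The match in CDC20 begins at -65, followed closely by a CCAAT box that begins at -55, with a second CCAAT box at -100 and a further TTTGAA on the other strand at -178. In BUB1B the match begins at -23 and no CCAAT box was found in the window, in BUB1 it begins at 1 and in MAD2L1 at 24, both after the start. BUB1 had CCAAT boxes at -79 and -54, and MAD2L1 had 1 at -229. CCNB1 and PTTG1 held neither TTTGAA nor TTCGAA. Both had TTTAAA near the same place, at -30 in CCNB1 and at -29 in the first of 2 PTTG1 windows. Both had CCAAT matches, 2 in CCNB1 and 3 in PTTG1. Those of PTTG1 at -51 and -48 in the first window overlap on opposite strands and are thus not separate boxes. In FZR1 the match lay far upstream, at -226 in 1 of 2 windows, with no CCAAT box. A match of these letters is a description of the sequence and not evidence of a bound factor.

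RBM47 is an RNA-binding protein, and AU-rich pentamers (ATTTA) in 3′ untranslated regions are a class of element that such proteins can read, so both were tabulated for the canonical GENCODE 44 transcripts. Of 13214 tested protein-coding genes, the median 3′ untranslated region was 1290 bases long, 71.3% held an ATTTA and 3.59% were shorter than 100 bases. CDC20, with 77 bases, and PTTG1, with 61 bases, were among these few, and neither held an ATTTA. CCNB1 had 617 bases with 4 ATTTA. Among the checkpoint genes, TTK had 328 bases and 0 ATTTA, BUB1 439 bases and 1, BUB1B 367 bases and 4, MAD2L1 4498 bases and 13, and BUB3 6635 bases and 23. FZR1, with 3501 bases, and UBE2C, with 188 bases, held none.

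The 5 genes whose profile over the 6 libraries lay nearest to that of CDC20 were neither members nor on any of the pathway lists. The measure was the root mean square distance in log2 CPM, each gene set to its NC mean, among the 10331 genes with a mean log2 CPM of at least 3. This distance takes in the size of the difference from NC as well as its pattern. CDC20 was selected on its lower level, and no other member or list gene had as low a log2 fold change. Their absence from the 5 nearest genes is therefore a description, and a shared pattern was not tested. RRP9, a ribosomal RNA processing factor, was nearest at 0.087, followed by CTD-2369P2.10 at 0.091, DDN at 0.098, ISG15 at 0.12 and ATOX1 at 0.12. Their exonic GC content was 60.7%, 62.6%, 61.9%, 63.4% and 46.7% in that order, against 57.6% in CDC20. The FPKM of RRP9 was 47.2, 49.9 and 48.3 across the NC libraries, against 30.4, 28.9 and 31.2 with RBM47-OE. Among the members on this scale, which carries no GC offset, FZR1 came nearest, at rank 488, with CCNB1 at rank 535 and PTTG1 at rank 555, then UBE2C at rank 1918. The checkpoint genes were far away, from rank 5946 for BUB3 to rank 9199 for TTK. With the offset, where no ranks were computed, the log2 fold changes of CCNB1 (-0.54) and PTTG1 (-0.49) lay closer to that of CDC20 (-0.61) than that of FZR1 (-0.16) did.

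Further genes of the pathway were counted from 6 lists, in the same fit and at the same adjusted p-value. The lists, too, were chosen with earlier results of these data known. Over all tested genes 19.1% were called higher and 16.9% lower in it, and 5.99% and 8.47% with the GC offset, and no list was tested against these shares. FBXO43 and NUSAP1 did not pass the filter on low counts. Overlapping gene models may bear on the counts of NUSAP1, which was not tested. As the treatment of overlapping genes in the counting is not given, the level of NUSAP1 is uncertain. Of 17 tested APC/C subunits, partner enzymes and inhibitors, 5 rose and 4 fell, with a median log2 fold change of 0.09. UBE2S, the enzyme that lengthens the ubiquitin chains begun by UBE2C, fell by 0.52 in log2 terms (standard error 0.078, edgeR adjusted p = 4.86e-05). CDC27, a scaffold subunit, rose by 0.49 (standard error 0.080, edgeR adjusted p = 0.000105), and FBXO5, the interphase inhibitor EMI1, rose by 0.47 (standard error 0.098, edgeR adjusted p = 0.000779). Under the offset 0 of the 17 were higher and 3 lower, with 1 higher and 7 lower at an unadjusted p-value under 0.05 in edgeR, and the median was -0.09. UBE2S was at -0.36 in that fit, CDC27 at 0.14 and FBXO5 at 0.16. In the fit without the offset, leaving out RBM47-OE replicate 1 took the number that rose from 5 to 8, and leaving out NC replicate 2, NC replicate 3 or RBM47-OE replicate 3 took it to 3.

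Of 25 other kinetochore and checkpoint genes, 11 rose and 4 fell, with a median of 0.23. The largest were NDC80, the microtubule-binding subunit of the outer kinetochore, at 0.44 (edgeR adjusted p = 0.00163), and ZWILCH and KNTC1, of the complex that brings MAD proteins to kinetochores, at 0.43 (edgeR adjusted p = 0.0016) and 0.40 (edgeR adjusted p = 0.00203). Median exonic GC was 39.5% for the 11 that rose against 53.3% for the 4 that fell. Under the offset the median was -0.01, and 0 were higher and 3 lower in edgeR, with 0 and 4 at an unadjusted p-value under 0.05. Without the offset, the 11 became 6 when NC replicate 2, NC replicate 3 or RBM47-OE replicate 3 was left out, and the 4 became 2 when any library except RBM47-OE replicate 1 was.

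Of 27 tested other APC/C substrates, 12 fell and 6 rose, with a median of -0.12. PLK1, the polo-like mitotic kinase, fell by 0.56 in log2 terms (standard error 0.076), from 27.2 ± 0.860 (SD, n = 3) to 19.4 ± 1.73 (SD, n = 3) FPKM. CDC25A, a phosphatase that activates cyclin-dependent kinases, fell by 0.55, whereas TOP2A, the topoisomerase that untangles sister chromatids, rose by 0.49. With the GC offset the median was -0.15, and 11 were lower and 1 higher. PLK1 was then at -0.38, CDC25A at -0.46 and TOP2A at 0.17.

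Separase and cohesin genes went the other way, with 8 of 12 higher and 1 lower and a median of 0.31. STAG1 rose by 0.56, STAG2 by 0.52 and NIPBL by 0.42, all of them parts or loaders of the cohesin ring that securin and separase control. Their GC content was 38.5% to 39.0%, and with the GC offset 2 of the 12 were higher and 1 lower, with STAG1 at 0.24, STAG2 at 0.20 and NIPBL at 0.10 and a median of 0.05.

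Of 20 regulators of G2 and M transcription, 8 rose and 7 fell, with a median of 0.19. MYBL2 and FOXM1, factors that drive transcription of mitotic genes, fell by 0.44 and 0.41, and LIN54, the subunit of the DREAM and MuvB complexes that contacts CHR elements, rose by 0.44. The FPKM of MYBL2 was 59.4, 60.4 and 59.1 across the NC libraries, against 47.0, 46.4 and 45.5 with RBM47-OE. Under the offset FOXM1 was at -0.27, MYBL2 at -0.23 and LIN54 at 0.13, the median was -0.01, and 2 of the 20 were higher and 3 lower. Without NC replicate 2 only 4 rose and 4 fell in the fit without the offset, and without RBM47-OE replicate 3 there were 5 that rose.

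Of 22 genes of G1 and S phase, 12 fell and 2 rose, with a median of -0.21. CCNE1, which encodes cyclin E1, fell by 0.57, UNG, a uracil glycosylase, by 0.42 and MCM2, a subunit of the replicative helicase, by 0.41. Under the offset 8 were lower and 0 higher in edgeR, and 10 and 0 at an unadjusted p-value under 0.05, with CCNE1 at -0.45, UNG at -0.38 and MCM2 at -0.24 and a median of -0.11. In the fit without the offset the 12 became 7 without NC replicate 1 or NC replicate 2, and the 2 became 1 without NC replicate 2 or RBM47-OE replicate 2. Lower levels were found in some of these G1 and S genes as well as in CCNB1 and PTTG1, and the cause was not tested. In none of the 6 lists did a gene meet the study's thresholds in edgeR, in DESeq2 or in limma on log2(FPKM + 1). Over all tested genes these thresholds called only 1.51% higher and 0.873% lower in edgeR. In edgeR CDC20 was the only gene to meet them among the 10 members and the genes of these lists. As CDC20 was selected on its lower level in these libraries, its meeting these thresholds is a description and not a test.

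**Figure D5:**
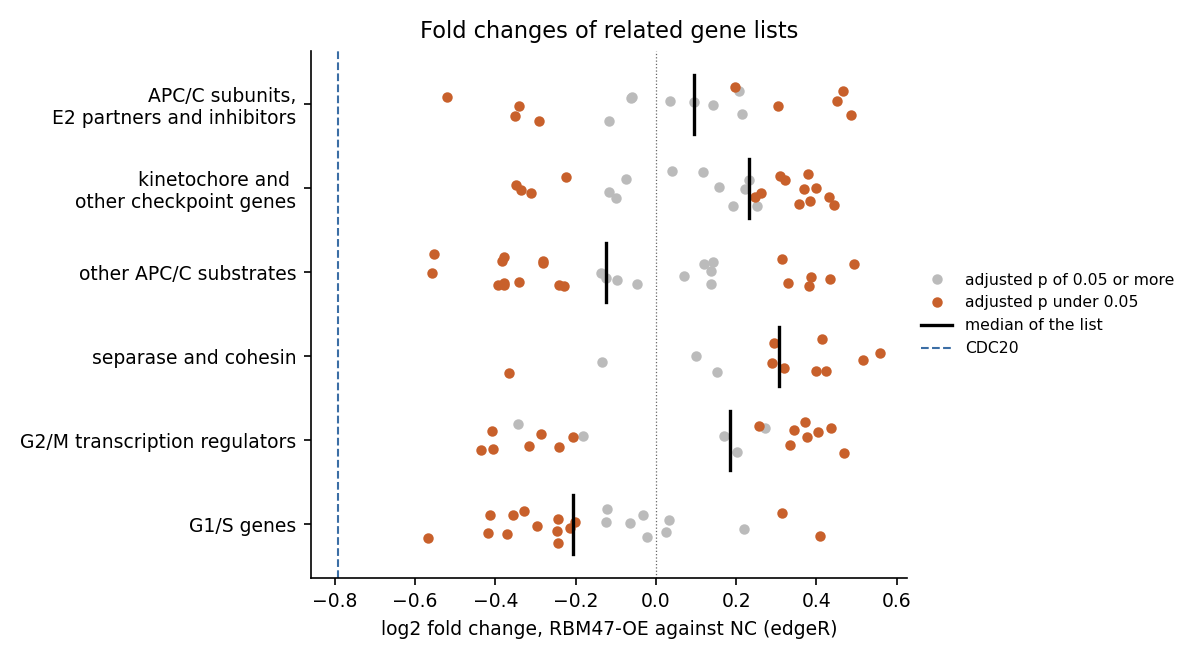
Log2 fold change of RBM47-OE against NC for the tested genes of the 6 lists, 1 point per gene, orange at an adjusted p-value under 0.05 and grey otherwise, with a black bar at the median of each list and a dashed blue line at CDC20 (-0.79). The medians run from -0.21 for G1 and S genes to 0.31 for separase and cohesin, and no point reaches the dashed line.

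Near-identical copies of the members were listed with few reads. The processed pseudogene CDC20P1 held 8, 13 and 11 counts in NC and 12, 2 and 3 in RBM47-OE, against at least 5102 for CDC20 in any library. PTTG3P, UBE2CP2 and MAD2L1P1 held 5, 7 and 6 counts over all 6 libraries, and the read-through gene BUB1B-PAK6 held 1. Reads that map equally well to a gene and its copy were left out by the authors, who counted unique alignments.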

How the data were processed

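The data are poly(A) RNA sequencing of HCT116 cells, with 3 NC and 3 RBM47-OE libraries, all of them used. The authors trimmed reads with FASTX-Toolkit 0.0.13 and aligned them to GRCh38 with HISAT2. The deposited counts are reads per gene without normalization, for 28491 genes, and the deposited FPKM values, also made by the authors, cover 28244 of them. The counting tool, the annotation release and the use of strand are not given in the sources used here. The labels name DMEM and a NEBNext directional kit, the methods McCoy's 5A and another stranded kit.

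Counts were tested with edgeR 4.0.16 in R 4.3.3 (filterByExpr with a minimum count of 10 and a minimum total of 15, TMM normalization, quasi-likelihood test on condition alone, Benjamini-Hochberg adjustment over all genes tested). Standard errors are the size of the log2 fold change over the square root of the F statistic, and log2 CPM used a prior count of 2. GC content, lengths and coordinates came from GENCODE 44 and the GRCh38 sequence, and the GC offset was a loess curve per library (span 0.3). Library totals lay between 26792409 and 35477983, and the members held 961 to 11105 counts in a library. Same-numbered NC and RBM47-OE libraries did not deviate together (Pearson's r across genes of -0.06, -0.01 and -0.02), so the samples were not treated as paired.

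The members and the gene lists were chosen with earlier results of these data known. Named in the text were all members, the 3 genes of each list with the largest change among called genes (adjusted p below 0.05) with no overlap between groups, and the 5 genes nearest to CDC20. Alternatives were DESeq2 1.42.0, other scalings and filters, the replicate block, offsets for GC content and length, limma 3.58.1 on log2(FPKM + 1) and log2(FPKM + 0.1) for a mean FPKM of at least 0.1, and each library left out. The fits were tested on simulated counts.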

Additional observations from a re-analysis of the deposited data

How the results depend on the processing

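CDC20 stayed negative in all 20 settings, between -0.87 and -0.61 on the log2 scale. As CDC20 was selected on its lower level in these same libraries, its sign across settings is a description and not a test. CCNB1 had an adjusted p-value under 0.05 in 20 of 20 settings, PTTG1 and FZR1 in 19, TTK in 18, BUB1 in 17, BUB1B in 16, UBE2C in 12 and BUB3 and MAD2L1 in 2 each. Most of these settings carry no GC offset. TTK, BUB1, BUB1B and UBE2C did not pass with the GC offset, either alone or with the replicate block. FZR1 passed with it alone (edgeR adjusted p = 0.0461) but not with the block (edgeR adjusted p = 0.0799). The fits with the GC offset and a library left out are not in this tally, and FZR1 passed in none of them. The GC offset gave CDC20 -0.61, BUB3 -0.19 and MAD2L1 -0.17, and left 0 members higher, 5 genes of the lists higher (40 without it), and 973 genes higher and 1375 lower of all tested (3100 and 2740 without it). With the GC offset and the replicate block together these were -0.61, -0.19, -0.17, 0, 3, 1022 and 1428. The length offset turned BUB3 to -0.035 on the log2 scale. The replicate block alone gave CDC20 -0.80, 4 members lower and 3 higher, and 2510 genes lower and 2957 higher, and changed no call of a member. In limma, log2(FPKM + 1) gave 25 list genes lower (40 in edgeR) and 1586 of all genes lower, and log2(FPKM + 0.1) gave 25 and 1599. Without a filter limma gave 2 members lower and 1 higher, 17 list genes lower and 13 higher, and 908 of all genes lower and 1410 higher. With library totals MAD2L1 passed at 0.22 (edgeR adjusted p = 0.0211). Limma without a filter tested more genes, and the cause of the other differences was not tested.

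With each library left out, 1675 to 3508 of all genes were lower and 2090 to 3864 higher, 28 to 41 list genes were lower and 26 to 54 higher, and 3 to 4 members were lower and 2 to 4 higher. Without NC replicate 2 the counts over all genes and over the list genes were lowest. MAD2L1 passed without RBM47-OE replicate 1, BUB1B did not without NC replicate 2, and UBE2C did not without NC replicate 3 or RBM47-OE replicate 2. Under the GC offset with each library left out, which was added after the data were seen, 2 to 4 members were lower and 0 higher. With 3 libraries a group no exact permutation p-value can lie under 0.10, and the library that differed most within its group, RBM47-OE replicate 1, gave the smallest differences for most members.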
